A study of Mus musculus with 6 samples.

Results

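The homeostatic astrocyte genes described here are 10 genes chosen by name: Aqp4, Slc1a2, Slc1a3, Glul, Gja1, Aldh1l1, Slc4a4, Kcnj10, Aldoc and S100b. They encode the water channel, glutamate and bicarbonate transporters, potassium channel, gap junction protein and metabolic enzymes with which resting astrocytes serve neurons. All 10 were among the 24054 genes of the deposited table, and all 10 were among the 14568 genes that passed the filter on low counts. The sequenced polyadenylated RNA came from 6 mice aged 16 to 17 weeks, 3 MitoParks and 3 littermate controls, whose substantia nigra (SN) had been dissected. MitoParks carried Cre at 1 allele of the dopamine transporter gene (Dat +/Cre) and floxed alleles of Tfam on both chromosomes (TFAM LoxP/LoxP). The controls had no Cre (Dat +/+) and 1 floxed Tfam allele (TFAM +/LoxP), and came from litters of the MitoPark or the parental strains. The labels give C57BL/6 as the background of both groups, and name the tissue only as brain. Cre in MitoParks is driven by the dopamine transporter gene, which marks dopaminergic neurons, so the deletion was not directed at astrocytes.

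Astrocytes take up the glutamate that neurons release, convert it to glutamine, and return glutamine to neurons. They also clear potassium and water from the space around active neurons and pass ions and metabolites to each other through gap junctions. Loss of dopaminergic neurons is commonly accompanied by reactive astrocytes, in which Gfap rises and some of these supportive functions may fall. The comparison addressed here is whether the RNA of the supportive genes differed in the SN of MitoParks.

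No homeostatic astrocyte gene differed between MitoParks and littermate controls beyond the spread between mice. A gene was called where edgeR's quasi-likelihood test gave p below 0.05 before adjustment together with more than a 1.5-fold change. Of the 10 genes 0 were called, against 0.577% of all genes tested. None of the 10 had an unadjusted p below 0.05, a level reached by 1.11% of all genes, and every adjusted p was 0.999. DESeq2 and limma-voom likewise called 0 of the 10. For 8 genes the 95% interval of the difference lay wholly within a 1.5-fold change in either direction, and for Aqp4 and S100b it reached past 1.5-fold. The median log2 fold change of the 10 genes was 0.0702, with 6 above 0 and 4 below, beside a median of -0.0047 over all genes, and the median of the 10 was 0.15 without littermate control 3. In whole SN tissue, the number of astrocytes and the RNA per astrocyte cannot be told apart.

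The 6 libraries held between 8140777 and 10528602 expected counts. The 10 genes together took between 0.665% and 0.786% of each library. The lowest count of any of the 10 in a single mouse was 507, for Aldh1l1, so that counting error alone was at most 4.44% of a value. Targeted Tfam measured 40.3, 44.4 and 45.5 CPM in littermate controls against 32.7, 33.1 and 33.2 CPM in MitoParks. CPM is the count relative to a library size scaled with TMM factors, and values are listed throughout for mice 1, 2 and 3 of each group. Littermate control 3 stood apart in its dopaminergic RNA. The summed level of 8 dopaminergic neuron genes was 1066 CPM in this mouse and between 195.8 and 374.8 CPM in the other 5. By Xist and Y-linked genes, each group held 2 females and 1 male, the males being littermate control 1 and MitoPark 2.

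Per base of the longest transcript, glutamine synthetase RNA was the most abundant of the 10 and Aldh1l1 RNA the least, whereas by the median transcript length Kcnj10 was the lowest and Aldh1l1 next to it. Levels per kb were normalized CPM divided by the length of the longest annotated transcript, and are given as the mean ± SD of all 6 mice. Glul was at 754 ± 82.0 CPM per kb (SD, n = 6), and Aldoc followed at 356 ± 21.7 CPM per kb (SD, n = 6). No mouse had less Glul than any mouse had Aldoc, and the same held between Aldoc and Slc1a2. Slc1a2 was at 160 ± 14.2 CPM per kb, S100b at 149.9 ± 44.0 CPM per kb and Slc1a3 at 131 ± 21.2 CPM per kb (SD, n = 6). Then came Kcnj10 at 89.3 ± 14.9, Gja1 at 77.8 ± 11.6, Aqp4 at 55.5 ± 23.4 and Slc4a4 at 49.7 ± 5.30 CPM per kb (SD, n = 6). From Slc1a2 to Slc4a4, every gene overlapped with its neighbour in this order across mice. Aldh1l1 was at 16.5 ± 2.04 CPM per kb (SD, n = 6), below every other gene of the 10 in every mouse on this scale. The order between genes depends on the length used for each, while the comparison of mice within a gene does not.

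**Figure D1:**
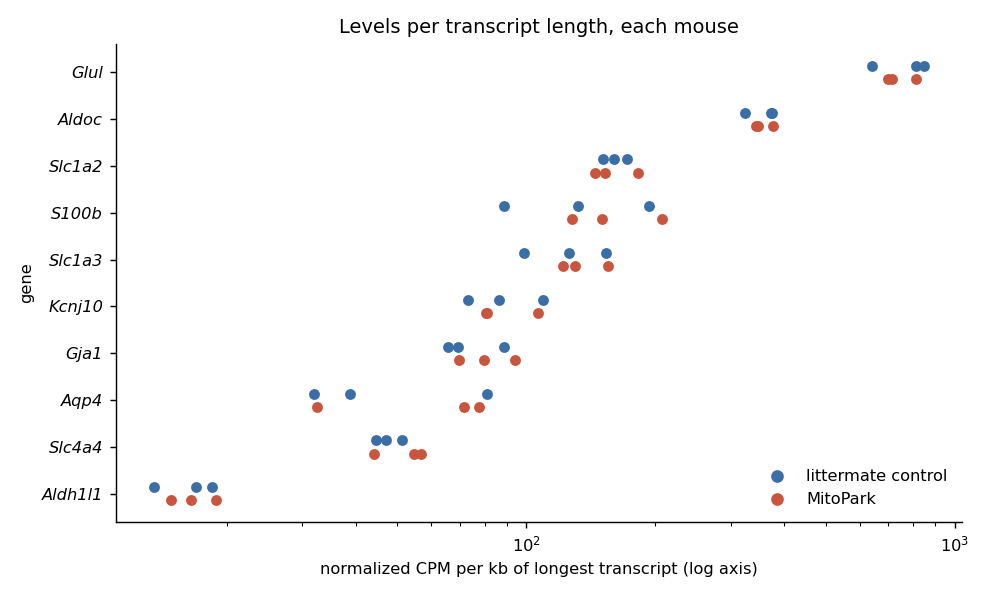
Normalized CPM per kb of the longest annotated transcript (log axis) for each homeostatic astrocyte gene, with 1 point per mouse, littermate controls in blue and MitoParks in red. Glul lies highest, with a mean of 754 CPM per kb, and Aldh1l1 lowest at 16.5 CPM per kb, and the points of the groups overlap for every gene.

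Slc1a2 encodes GLT-1, the transporter that clears most of the glutamate released in the adult forebrain, and Slc1a3 encodes GLAST, its relative that is prominent in radial and cerebellar glia. Slc1a2 measured 1852, 1754 and 1988 CPM in littermate controls against 1771, 2115 and 1674 CPM in MitoParks. All 3 controls lay within the range of the MitoParks. Its log2 fold change was -0.0089 (standard error 0.14, unadjusted p = 0.949 by the edgeR test), and its 95% interval corresponded to a level in MitoParks between 0.805 and 1.23 times that of controls. Slc1a3 measured 681, 556 and 437 CPM in littermate controls against 687, 575 and 538 CPM in MitoParks. Littermate control 1 and MitoPark 1 were the highest of their groups, and littermate control 3 was the lowest of all. Its log2 fold change was 0.10 (standard error 0.17, unadjusted p = 0.559), with an interval from 0.822 to 1.41 times the level of controls.

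The read number of Slc1a2 relative to Slc1a3, taken within each library and therefore free of the scaling between libraries, was 2.72, 3.15 and 4.55 for littermate controls, compared with 2.58, 3.68 and 3.11 for MitoParks. The balance of the transporters thus varied more among controls than between the group means of 3.47 ± 0.954 and 3.12 ± 0.551 (SD, n = 3 each). This ratio compares reads, not transcripts, because the Slc1a2 transcript is the longer one.

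Glul encodes glutamine synthetase, which turns glutamate and ammonia into glutamine in astrocytes and is also made by oligodendrocytes. Glul measured 1788, 2271 and 2365 CPM in littermate controls against 1988, 2271 and 1944 CPM in MitoParks. All 3 MitoParks lay within the range of the controls. Its log2 fold change was -0.0504 (standard error 0.15, unadjusted p = 0.739), with an interval from 0.768 to 1.21 times the level of controls.

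Aqp4 encodes aquaporin-4, the water channel of astrocyte endfeet around blood vessels. It had the widest spread of the 10 genes. Aqp4 measured 161, 196 and 409 CPM in littermate controls against 164, 361 and 392 CPM in MitoParks. The 6 mice thus fell on both sides of a gap between 196 and 361 CPM, with 2 controls and 1 MitoPark below it and 1 control and 2 MitoParks above it. The group means were 255 ± 134 CPM in littermate controls and 306 ± 124 CPM in MitoParks (SD, n = 3 each). The log2 fold change of Aqp4 was 0.26 (standard error 0.38, unadjusted p = 0.512), and the interval reached from 0.661 to 2.17 times the level of controls, so that a 1.5-fold change in either direction lay within it. With littermate control 3 left out, Aqp4 differed by 0.78 on the log2 scale (edgeR, unadjusted p = 0.0213, Benjamini-Hochberg adjusted p = 1.00) and was called, as were 1.5% of all genes in that comparison of 3 MitoParks with 2 controls.

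Kcnj10 encodes Kir4.1, the inwardly rectifying channel through which astrocytes take up potassium, and Slc4a4 encodes NBCe1, which carries sodium and bicarbonate across the astrocyte membrane and so moves acid equivalents. Kcnj10 measured 395, 466 and 590 CPM in littermate controls against 436, 575 and 435 CPM in MitoParks. Every MitoPark lay within the range of the controls. Its log2 fold change was -0.0038 (standard error 0.17, unadjusted p = 0.983), with an interval from 0.761 to 1.31 times the level of controls. Slc4a4 measured 373, 354 and 405 CPM in littermate controls against 349.7, 449 and 434 CPM in MitoParks. MitoParks 2 and 3 exceeded all 3 controls and MitoPark 1 was below them. Between the groups, Slc4a4 had a log2 fold change of 0.12 (standard error 0.13, unadjusted p = 0.361), the smallest p of the 10 genes, with an interval from 0.891 to 1.33 times the level of controls.

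Gja1 encodes connexin 43, the main gap junction protein of astrocytes. Gja1 measured 255, 269 and 344 CPM in littermate controls against 270.5, 366 and 309.9 CPM in MitoParks. The highest Gja1 level was in MitoPark 2, but MitoPark 1 was level with littermate control 2. Its log2 fold change was 0.12 (standard error 0.15, unadjusted p = 0.441), with an interval from 0.857 to 1.39 times the level of controls.

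Aldh1l1 encodes a folate enzyme that is widely used as a marker of all astrocytes, and Aldoc encodes aldolase C, a brain isoform of a glycolytic enzyme. Aldh1l1 measured 56.5, 70.6 and 76.9 CPM in littermate controls against 61.9, 68.7 and 78.6 CPM in MitoParks, and the values of the groups interleaved. The log2 fold change of Aldh1l1 was 0.0363 (standard error 0.14, unadjusted p = 0.805), with an interval from 0.821 to 1.28 times the level of controls. Aldoc was the steadiest of the 10, with 902, 1038 and 1043 CPM in littermate controls against 1050.4, 965 and 955 CPM in MitoParks. Its highest and lowest mice, MitoPark 1 and littermate control 1, differed 1.16-fold. Between the groups, Aldoc had a log2 fold change of -0.0066 (standard error 0.12, unadjusted p = 0.957), and its interval, from 0.827 to 1.198 times the level of controls, was the narrowest of the 10.

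S100b encodes a calcium-binding protein that is made by astrocytes and also by oligodendrocytes. S100b measured 132, 196 and 287 CPM in littermate controls against 189.9, 223 and 307 CPM in MitoParks. Both groups spanned low, middle and high mice, and MitoPark 3 was the highest and littermate control 1 the lowest. The log2 fold change of S100b was 0.23 (standard error 0.27, unadjusted p = 0.413), with an interval from 0.774 to 1.77 times the level of controls. With littermate control 3 left out, S100b differed by 0.55 on the log2 scale (edgeR, unadjusted p = 0.0262, Benjamini-Hochberg adjusted p = 1.00), still short of 1.5-fold.

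**Figure D2:**
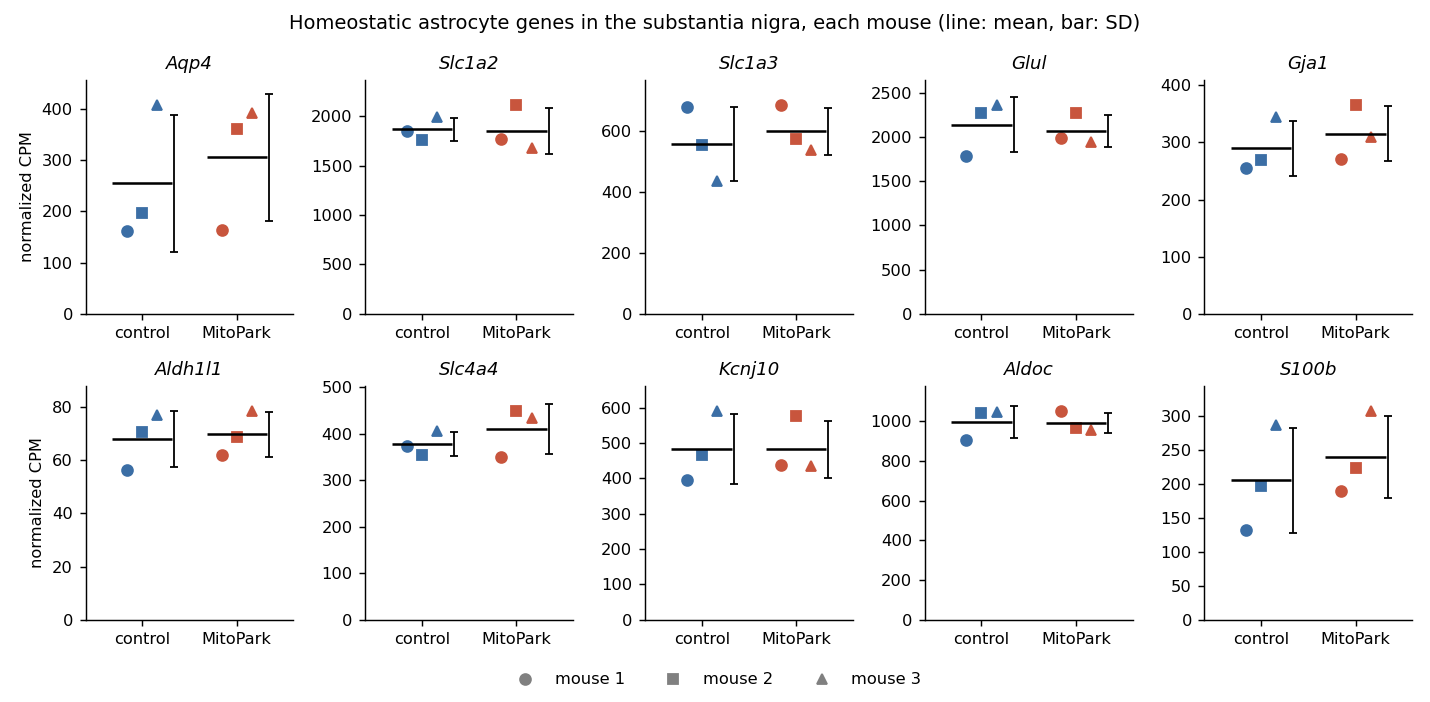
Normalized CPM of the 10 homeostatic astrocyte genes in each mouse (vertical axis from 0), with littermate controls in blue and MitoParks in red, 1 symbol per mouse number, a line at each group mean and a bar for its SD (n = 3). The groups overlap in every panel, and Aqp4 and S100b spread most, from 161 to 409 CPM and from 132 to 307 CPM.

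The groups overlapped for all 10 genes, while among all genes tested they did not overlap for 4.71%. Exact two-sided permutation tests of log2(CPM + 0.1) gave unadjusted p-values between 0.4 and 1 for the 10 genes, where 3 mice against 3 cannot give a p below 0.1. The plot of fold changes with their intervals shows the same order of precision, from Aldoc with a standard error of 0.12 to Aqp4 with 0.38. Of all genes tested, 66.5% had an interval within a 1.5-fold change, and of those with a mean above 50 CPM, as all 10 had, 93.9% did.

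**Figure D3:**
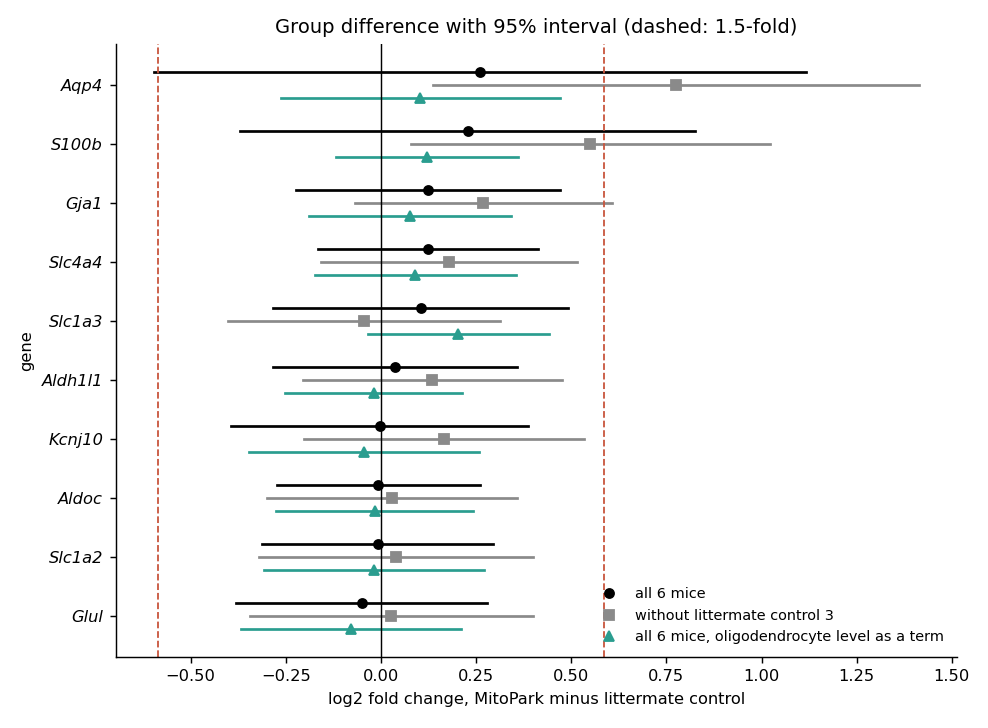
Log2 fold change of each homeostatic astrocyte gene, MitoPark minus littermate control, with its 95% interval, from all 6 mice (black), without littermate control 3 (grey), and from all 6 mice with the oligodendrocyte level as a term (green). Dashed lines mark 1.5-fold. With all 6 mice the intervals of Aqp4 and S100b cross a dashed line and the other 8 do not. Without littermate control 3, Aqp4 lies at 0.78 and S100b at 0.55.

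The spread within a group was widest for Aqp4, whose highest and lowest mice differed 2.53-fold among controls and 2.39-fold among MitoParks, and for S100b, with 2.18-fold and 1.62-fold. Over all 6 mice regardless of group, Aqp4 differed 2.53-fold and S100b 2.33-fold between the highest and the lowest mouse, where the median over the 4889 genes with a mean above 50 CPM was 1.29-fold. On the same measure Slc1a3 differed 1.57-fold, Kcnj10 1.49-fold and Gja1 1.43-fold. Slc4a4 and Slc1a2, at 1.28-fold and 1.26-fold, were close to that median, and Aldoc was below it. Littermate control 1 was the lowest mouse for 7 of the 10 genes and was the highest for none. Littermate control 3 and MitoPark 2 were each above the gene's geometric mean over all 6 mice for 9 of the 10 genes. The exceptions were Slc1a3 in littermate control 3 and Aldoc in MitoPark 2. In MitoPark 2, Slc1a3 and Aldh1l1 were above it by only 0.0056 and 0.0070 on the log2 scale. Littermate control 1 was above that mean for 1 of the 10 genes and MitoPark 1 for 2. Most genes thus lay on the same side of their mean in each of these mice, though not all 10 did.

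Slc1a3 ran against Aqp4 and S100b. Littermate control 1 and MitoPark 1, the lowest mice for Aqp4 and S100b, were the highest for Slc1a3, and littermate control 3, the highest for Aqp4, was the lowest for Slc1a3. The read number of Aqp4 relative to Slc1a3 within a library was 0.237, 0.353 and 0.934 for littermate controls, compared with 0.239, 0.629 and 0.728 for MitoParks. Relative to the pan-astrocyte gene Aldh1l1, Aqp4 reads numbered 2.86, 2.78 and 5.31 in the controls and 2.65, 5.26 and 4.99 in the MitoParks. Slc1a3 reads numbered 12.1, 7.88 and 5.69 per Aldh1l1 read in the controls and 11.1, 8.36 and 6.85 in the MitoParks. These ratios were chosen after the values were seen and are given without a test.

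The order of the mice for Aqp4 was also that of their oligodendrocyte RNA and of an astrocyte list, the ion transport genes. The summed level of 9 oligodendrocyte marker genes, among them Mbp of the myelin sheath, was 6989, 9811 and 18485 CPM for littermate controls, compared with 9533, 12425 and 15655 CPM for MitoParks. From the lowest to the highest mouse, this sum ran in the same order as Aqp4, from littermate control 1 through MitoPark 1, littermate control 2, MitoPark 2 and MitoPark 3 to littermate control 3. S100b followed the same order except that MitoPark 3 exceeded littermate control 3. Summed over 8 astrocyte ion transport genes, CPM ran in the order of Aqp4 too, at 3191, 3586 and 4519 in littermate controls and 3297, 3950 and 4212 in MitoParks. These matches were found by comparing the sums of all 24 gene lists with Aqp4. No other list ran in its order, and neither did the other astrocyte lists. The oligodendrocyte genes themselves showed no call between the groups, with 0 of 9 past the cutoffs and a median log2 fold change of 0.0161. Without littermate control 3, the comparison in which Aqp4 was called, this median was 0.495.

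With the oligodendrocyte level entered in the model beside the group, the standard error of Aqp4 fell from 0.38 to 0.17 and that of S100b from 0.27 to 0.11, while that of Slc1a3 went from 0.17 to 0.11. The log2 fold changes were then 0.10 for Aqp4 (unadjusted p = 0.551 by the edgeR test), 0.12 for S100b (unadjusted p = 0.289) and 0.20 for Slc1a3 (unadjusted p = 0.0867). None of the 10 genes was called in this fit, which was added after the values were seen and leaves 3 residual degrees of freedom. With sex as a term, also added afterwards, the log2 fold change of Aqp4 was 0.299 and again none of the 10 was called.

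**Figure D4:**
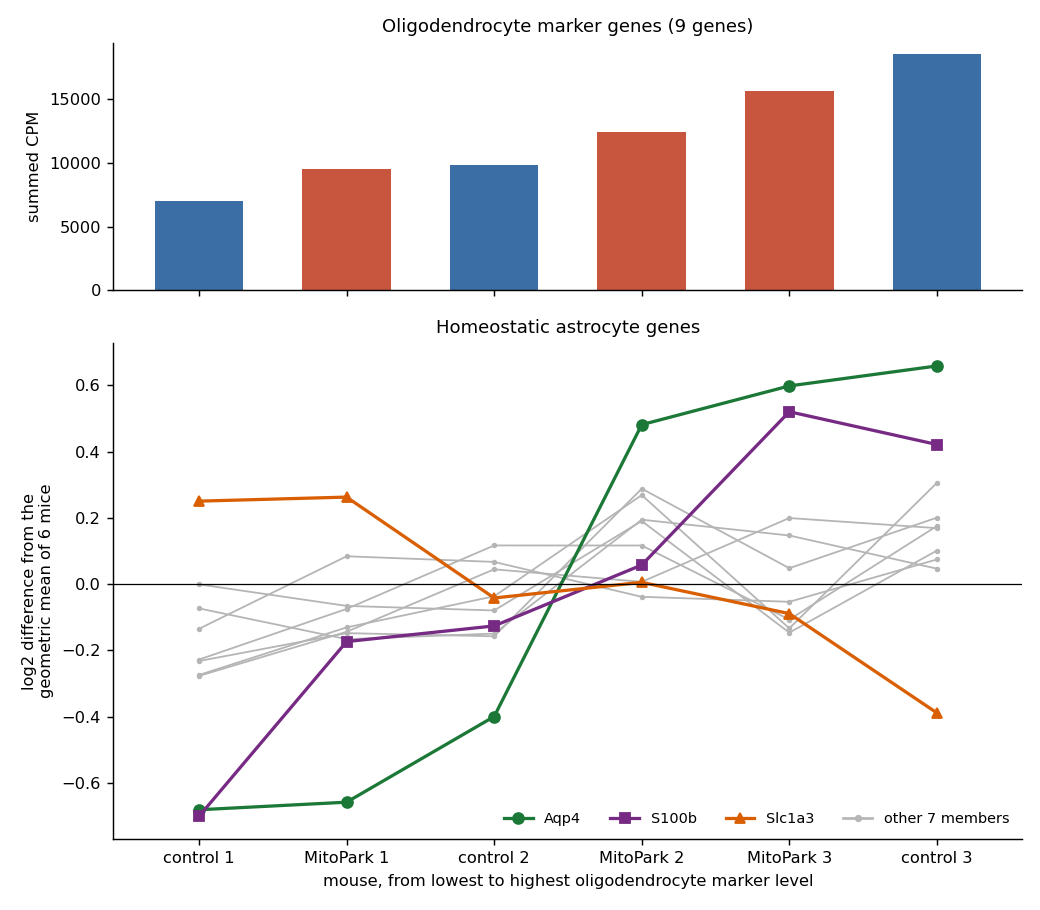
Upper plot, the summed CPM of 9 oligodendrocyte marker genes in each mouse, littermate controls in blue and MitoParks in red, ordered from low to high. Lower plot, the log2 difference of each homeostatic astrocyte gene from its geometric mean over the 6 mice, in the same order of mice. Aqp4 (green) climbs with the oligodendrocyte sum from -0.68 to 0.66, S100b (purple) from -0.701 to 0.42, and Slc1a3 (orange) runs from 0.25 down to -0.39.

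Partners of these genes in the same functions gave no call. Of 7 genes that anchor Aqp4 at the endfoot or share its complex, 0 passed the cutoffs and all 7 intervals lay within 1.5-fold, with a median log2 fold change of 0.0526 (0.0077 without littermate control 3). Among them Hepacam, an adhesion protein of astrocyte junctions, had the smallest p (log2 fold change 0.12, unadjusted p = 0.457), and Dtna, the dystrobrevin of the endfoot complex, the next (0.0675, unadjusted p = 0.501). Mlc1, which Hepacam binds, was the most abundant, between 174 and 207 CPM in the 6 mice. Hepacam itself ranged from 105 to 155 CPM, lowest in littermate control 1 and highest in MitoPark 3.

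For the glutamate and glutamine cycle, 0 of 9 genes were called, 4 above and 5 below 0, with a median log2 fold change of -0.0495 (-0.00078 without littermate control 3). Slc38a3, the glutamine exporter of astrocytes, had the smallest p (log2 fold change 0.0929, unadjusted p = 0.512), followed by Got2, the mitochondrial aspartate aminotransferase (-0.0682, unadjusted p = 0.548). Glud1, glutamate dehydrogenase, was the most abundant by count, between 408 and 449.1 CPM. All 4 genes for the uptake and breakdown of GABA and glycine had intervals within 1.5-fold, and their median was 0.0438 (0.113 without littermate control 3). Of these, the astrocytic GABA transporter Slc6a11 measured 818, 800.3 and 912 CPM in littermate controls against 865, 900.2 and 879 CPM in MitoParks (log2 fold change 0.0641, unadjusted p = 0.583), and the glycine transporter Slc6a9 had a log2 fold change of 0.0602 (unadjusted p = 0.716).

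Of 8 genes of ion transport, 0 were called and the median log2 fold change was -0.0056, which turned to 0.156 without littermate control 3. Slc8a1, a sodium and calcium exchanger, had the smallest p (log2 fold change -0.205, unadjusted p = 0.163), then Kcnk1, a leak potassium channel (0.0796, unadjusted p = 0.619). Among 5 other connexin genes and the junction scaffold Tjp1, 0 of 6 were called, with a median of 0.0765 (0.317 without littermate control 3). Gjb2 had the smallest p (log2 fold change 0.28, unadjusted p = 0.336) and Tjp1 the next (0.0685, unadjusted p = 0.629), while Gjc3 was the most abundant, at 105 to 238 CPM. Gjb6, connexin 30, the other connexin of astrocytes, was between 93.0 and 131 CPM with a log2 fold change of 0.0562.

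Of 10 genes of astrocyte metabolism, 0 were called, with a median log2 fold change of 0.0051 (0.122 without littermate control 3). Gys1, a glycogen synthase, had the smallest p (log2 fold change 0.18, unadjusted p = 0.218). Aldh1a1, which is also a marker of ventral dopaminergic neurons, followed at -0.405 (unadjusted p = 0.342), with littermate control 3 at 367 CPM against 102 to 191 CPM in the other 5 mice. Ldhb, a lactate dehydrogenase subunit, was the most abundant, between 315 and 496 CPM.

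Of 16 further genes of astrocyte identity, 0 were called, but 15 of the 16 were above 0, with a median log2 fold change of 0.0747 (0.166 without littermate control 3). The background over all genes was 7077 above 0 and 7491 below. Slc7a11, the cystine-glutamate exchanger, came nearest to the cutoff on p. It measured 72.5, 51.8 and 47.2 CPM in littermate controls against 71.4, 75.2 and 71.1 CPM in MitoParks (log2 fold change 0.35, unadjusted p = 0.0548), and littermate control 1 was level with the MitoParks. Apoe, the lipid carrier, had a log2 fold change of 0.23 (unadjusted p = 0.131) and measured 1378, 1618 and 1652 CPM in littermate controls against 1889, 1586 and 1972 CPM in MitoParks. Sparcl1, a secreted protein that promotes synapse formation, was the most abundant, between 2345 and 3140 CPM. These genes were measured in the same 6 mice and are not separate observations.

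The regional astrocyte genes, 2 of which are the GABA and glycine transporters above, varied among mice as well. Agt, angiotensinogen, which marks astrocytes outside the telencephalon, measured 236, 239 and 217 CPM in littermate controls against 306, 223 and 290.1 CPM in MitoParks (log2 fold change 0.24, unadjusted p = 0.103). Itih3, a hyaluronan-binding protein used here for the same region, was lowest in littermate control 3 at 237 CPM and highest in MitoPark 1 at 425 CPM. Mfge8, which marks telencephalic astrocytes, was between 52.1 and 76.0 CPM, with a log2 fold change of -0.0270. None of the 4 non-telencephalic or the 3 telencephalic genes was called, and the median of the former was 0.0719 (0.162 without littermate control 3).

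Reactive astrocyte genes gave no call among the 14 of 18 that passed the filter, and their median log2 fold change of 0.0787 turned to -0.0582 without littermate control 3. Gfap, the intermediate filament that rises in reactive astrocytes, measured 193, 171 and 352 CPM in littermate controls against 255, 356 and 550 CPM in MitoParks (log2 fold change 0.697, unadjusted p = 0.0548). Littermate control 3 was level with MitoPark 2 and above MitoPark 1. S1pr3, a sphingosine phosphate receptor, was lower in each MitoPark than in each control, at 7.26 to 8.78 CPM against 9.59 to 11.7 CPM (log2 fold change -0.357, unadjusted p = 0.0710). Osmr, the oncostatin M receptor, was higher in each MitoPark, at 4.65 to 5.22 CPM against 2.85 to 4.45 CPM (log2 fold change 0.34, unadjusted p = 0.212). These were the 2 genes of the 14 whose groups did not overlap, against 4.71% of all genes.

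**Figure D5:**
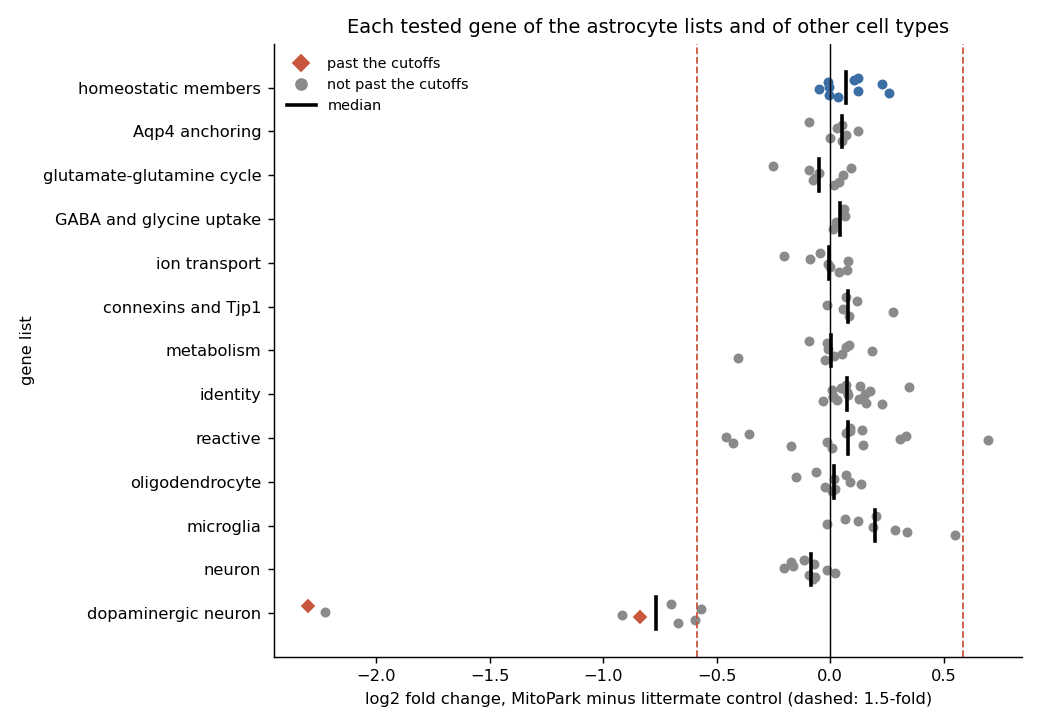
Log2 fold change, MitoPark minus littermate control, of each tested gene of the astrocyte lists other than the regional ones and of markers of other cells, 1 point per gene, with the median of each list as a bar and dashed lines at 1.5-fold. The 10 homeostatic genes lie between -0.0504 and 0.26. Red diamonds mark genes past the cutoffs, which are 2 of 8 dopaminergic neuron genes, against 0.577% of all genes tested.

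Markers of other cells were read in the same libraries. Dopaminergic neuron genes had log2 fold changes below 0 for 8 of 8, and Slc6a3 and Foxa1 were called lower in MitoParks, with a median over the list of -0.770 that was -0.0827 without littermate control 3. Slc6a3 is the dopamine transporter gene, which carries Cre at 1 allele in MitoParks only. For Slc6a3 the Cre allele and a change in dopaminergic neurons cannot be told apart. Of 8 microglia genes, 7 were above 0 with a median of 0.196, and their summed level was 277 to 365 CPM in controls and 348 to 377 CPM in MitoParks. For 2 of the 8 the groups did not overlap, both higher in MitoParks, against 4.71% of all genes. An unadjusted p below 0.05 was reached by 1 of the 8 (0.0310, edgeR), against 1.11% of all genes, and 0 were called. The defining genes of microglia were present in every mouse, with Tmem119 between 12.1 and 16.9 CPM. Summed neuron markers ranged from 7294 to 8976 CPM in controls and from 6897 to 8329 CPM in MitoParks. Of the 10 neuron markers, 1 was above 0 and 9 were below, and 0 were called. Their median log2 fold change was -0.0852 (-0.0407 without littermate control 3). Ttr, of the choroid plexus, was at 131 CPM in littermate control 2 and between 0.853 and 22.9 CPM in the other 5 mice. None of the tested genes of oligodendrocyte precursors (5), vessels (8), ependyma (5), choroid plexus (4), cerebellum (4), striatum (5) or blood (5) was called. The part of these cell types in the values of the 10 genes was not tested. The fit with the oligodendrocyte level is no such test, because that term was added after the values were seen.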

How the data were processed

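Per the labels and the methods, polyadenylated RNA of 6 mice (3 MitoParks, 3 littermate controls) was sequenced in strand-specific libraries. Bowtie2 2.1.0 aligned the reads to UCSC transcripts, and RSEM 1.2.15 gave the expected counts that the authors deposited, not normalized, for 24054 gene symbols. The submitters' processing notes name hg38, although the symbols are those of mouse genes, so no coordinates are given. RSEM divides reads that fit several transcripts, and the counts of Slc1a2 and Kcnj10 were not whole numbers in any of the 6 mice, so some of their reads were shared with other genes.

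From there, the expected counts were rounded, a gene was kept when the mean CPM of either group exceeded 1, and counts were TMM-normalized and fitted with edgeR 4.0.16 (quasi-likelihood test, R 4.3.3) with the group as the only term. A call needed p below 0.05, not adjusted, together with more than a 1.5-fold change. These limits follow the edgeR passage of the methods for the SN libraries, which does not mention adjustment. Another passage on expression analysis names a different aligner and an adjusted p from another test, so Benjamini-Hochberg values over all 14568 genes are given as well. Standard errors and 95% intervals of log2 fold changes come from the same fit. Transcript lengths are those of GENCODE M21, which held all 10 genes, and may differ from the UCSC transcripts used by the authors. Exact permutation tests used log2(CPM + 0.1). Depth was between 8140777 and 10528602 counts per mouse, and reads carry no molecular identifiers, so intervals from counts alone would be too narrow. Within groups, no pair of mice agreed within sampling noise (chi-square at least 10.2 per degree of freedom), and each counted as 1 replicate. The labels do not say more about the mice. Each edgeR p-value sets the group difference against the spread between these 6 mice, which the fit estimates with the help of all genes.

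The procedure was tested on simulated data. Alternatives were other normalizations, filters and tests of edgeR, DESeq2 1.42.0, limma-voom (limma 3.58.1), unrounded counts, a block of replicate numbers, each mouse left out in turn, another pseudocount and another transcript length. Terms for sex and for the oligodendrocyte level were added after the data were seen. The 10 genes and the other lists were chosen with earlier results of these data known. Named are all 10 genes, and from each other astrocyte list the genes called, the 2 with the smallest p and the most abundant by count; other genes named, among them Gjb6, Osmr, Itih3, Mfge8, Tmem119, Ttr, Xist and Mbp, were picked after their values were seen. Some genes are not reported here.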

Additional observations from a re-analysis of the deposited data

How the results depend on the processing

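Of the 10 homeostatic astrocyte genes, 0 were called under the 13 alternatives with all 6 mice, under both added terms and without any of 5 single mice, while without littermate control 3 Aqp4 was called, a range from 0 to 1. The number of all genes called, 84, was 176 without the filter on low counts and 150 with the oligodendrocyte term, and ranged from 62 to 219 when single mice were left out. The median log2 fold change of the 10 genes ranged from -0.0060 to 0.15 when single mice were left out.

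Log2 fold changes near 0 changed sign. Kcnj10 was at 0.0011 with upper quartile normalization, 0.0112 with total counts, 0.0033 with limma-voom and 0.0040 with the replicate block. Aldoc was at 0.00014 with the upper quartile and 0.0084 with total counts, Slc1a2 at 0.0041 with total counts, and Aldh1l1 at -0.0196 with the oligodendrocyte term. With total counts 9 of the 10 genes were above 0, against 6. Leaving out single mice, log2 fold changes ranged from -0.11 to 0.0588 for Slc1a2, -0.0443 to 0.28 for Slc1a3, -0.16 to 0.0273 for Glul, -0.0744 to 0.13 for Aldh1l1, -0.14 to 0.17 for Kcnj10, -0.0672 to 0.0295 for Aldoc and -0.0024 to 0.55 for S100b. Gja1, Slc4a4 and Aqp4 stayed above 0, Aqp4 between 0.02 without littermate control 1 and 0.78 without littermate control 3. The cause of these shifts was not tested.

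Replicate numbers of both groups could be entered as a replicate block, but the labels do not say whether same-numbered mice belong together. Their deviations from the group mean correlated at 0.307, -0.07 and 0.244 for numbers 1, 2 and 3. These correlations alone cannot settle whether same-numbered mice shared anything beyond the number. With the replicate block 126 genes and 0 of the 10 were called. S100b then had a log2 fold change of 0.27 (unadjusted p = 0.0386, edgeR's quasi-likelihood test) and Aqp4 of 0.28 (unadjusted p = 0.117, same test). Divided by the median instead of the longest transcript length, levels per kb were 3826 for Glul, 3452 for Slc1a2, 1328 for Aldoc, 523 for Slc1a3, 229.8 for Aqp4, 173 for Gja1, 149.9 for S100b, 136 for Slc4a4, 105 for Aldh1l1 and 89.3 for Kcnj10, so that the order between genes rests on the length. For Aqp4 and S100b the spread between mice, not the depth, limited the precision.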
